A study of Mus musculus with 12 samples.

Results

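The genes of retinoic acid metabolism and signaling described here are 10 of the 55335 genes in the count files. They are Aldh1a1, Crabp2, Cyp26a1, Cyp26b1, the retinoic acid receptor genes Rara, Rarb and Rarg, and the retinoid X receptor genes Rxra, Rxrb and Rxrg, matched exactly by gene name. The set was selected on the counts themselves, since Cyp26a1 had the largest difference of compressed over freshly isolated cells among the called genes with a mean of at least 10 counts scaled to library size (CPM). The levels of Cyp26a1 in the groups of that comparison are therefore given as a description with no test. All 10 genes passed the filter on low counts and belong to the 22635 genes tested.

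The muscle stem cells (MuSCs) came from the hindlimb of Pax7-ZsGreen mice (3 to 6 months old), and their RNA was sequenced in 4 groups of 3 libraries. All groups came from cells sorted for ZsGreen, a green reporter driven by Pax7 sequences, so every library is a mix of the cells that passed this gate. F cells went straight from the sorter into TRIzol. The uncompressed groups 2d-U and 5d-U grew for 2 and 5 days in growth medium with serum and FGF on plastic coated with Matrigel and fibronectin, and the 2+3d-C group grew for 2 days in the same way and for 3 more under a silicone device whose pillars hold a film just above the dish. The labels do not say which libraries came from separate animals or sorts, and p-values measure only the spread between these libraries.

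Retinoic acid is made from retinol in successive oxidations, the last one by retinaldehyde dehydrogenases such as Aldh1a1. Inside the cell Crabp2 carries it to the nucleus, where heterodimers of a retinoic acid receptor (RAR) and a retinoid X receptor (RXR) bind pairs of hexamer repeats in DNA and switch transcription between repression and activation. The cytochromes Cyp26a1 and Cyp26b1 oxidize retinoic acid and end its action, and Cyp26a1 and Rarb are textbook target genes of the receptors themselves. In muscle, retinoic acid is known to act on the choice of myogenic cells between proliferation and differentiation.

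The stretches shown lie just upstream of 1 RefSeq start each of Cyp26a1 and Rarb. Of the 9 members with an entry among the RefSeq promoters of the mouse (GRCm38.p6), these 2 hold the classic response element DR5. The other 7 do not. Crabp2 had no entry. Each line gives the 120 bases before 1 RefSeq start of the gene, 5′ to 3′ on the strand of the gene. They lie at chr19:37697688-37697807 for Cyp26a1 and at chr14:16575477-16575596 for Rarb. In Rarb this start lies inside the annotated span of the gene (chr14:16430839-16819156). Capitals mark the DR5 match, which is a pair of direct repeats of the receptor hexamer (AGGTCA or 1 of 3 close variants) with 5 bases between them.
Cyp26a1: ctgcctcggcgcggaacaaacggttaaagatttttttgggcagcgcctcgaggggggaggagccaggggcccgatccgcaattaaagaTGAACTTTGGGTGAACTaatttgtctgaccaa
Rarb: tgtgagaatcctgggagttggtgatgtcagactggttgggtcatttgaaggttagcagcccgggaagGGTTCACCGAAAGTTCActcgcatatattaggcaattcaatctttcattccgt

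In Cyp26a1 the match lies on the opposite strand at -32 to -16 from the start, and in Rarb it lies on the strand of the gene at -53 to -37. Both strands of windows from 250 bases before to 50 after each start were searched. A DR5 match was present in 32 of 32851 windows (0.0974%), which belong to 31 of 27025 genes (0.115%). The related spacings of 1 and 2 bases (DR1 in 0.222% and DR2 in 0.268% of windows) were found in none of the 17 windows of the members. A match is a string of letters and no measurement of receptor binding, and the windows cover only short stretches of each gene.

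The reads counted on genes came to between 12540745 and 62424851 in a library. Reads on gene families that are silent in muscle, such as olfactory receptors, differed between libraries and set the background for genes with few reads: they reached 5.12 and 7.24 reads per kb of exon in F replicates 4 and 5 and 3.84 in 5d-U replicate 1, against at most 0.0373 in 2d-U and 0.188 in 2+3d-C. Markers of MuSCs summed to between 17100 and 18200 CPM in 2+3d-C, against 3160 to 7450 in F and 2570 to 3860 in the uncompressed groups. Myod1 was the highest of them in 2+3d-C (mean 5930 CPM). Its RNA had 4160 to 8460 CPM there, against 1080 to 1380 CPM in 2d-U and 1120 to 2380 CPM in 5d-U. The paper counts cells with MyoD protein as progenitors or committed cells. By immunostaining, the paper reports smaller fractions of such cells under compression than in uncompressed culture. The RNA and the protein thus went in opposite directions, and the reason was not tested. Among the MuSC markers, Itga7 overlapped between 2+3d-C and uncompressed culture, at 83.5 to 426 CPM in 2+3d-C and 372 to 479 CPM in 2d-U. Myf5 did so too (191 to 371 CPM in 2+3d-C and 158 to 200 in 2d-U). Cdh15 had 122 to 213 CPM in 2+3d-C and 44.2 to 199 in 5d-U. The summed levels of markers of fibroadipogenic, endothelial, glial and erythroid cells stood higher in each library of F and 2+3d-C than in any uncompressed library. Single markers overlapped between 2+3d-C and uncompressed libraries, such as Cd34 (153 to 240 CPM in 2+3d-C and 201 to 231 CPM in 2d-U). So did Pdgfra (0.0914 to 8.51 CPM in 2+3d-C and 0.523 to 3.83 in 5d-U), Pi16 (0 to 1.88 and 0.0698 to 1.22) and Mfap5 (2.65 to 10.4 and 0.147 to 6.48). Between the same 2 groups Ly6a (23.8 to 77.1 and 1.87 to 40.4) and Col3a1 (87.7 to 459 and 29.6 to 99.1) overlapped as well. Emcn of the endothelial list and Cdh19, Erbb3, Ngfr, Sox10 and S100b of the glial list overlapped too. The 11 fibroadipogenic markers summed to 5350 to 32800 CPM in F, 2670 to 4630 CPM in 2+3d-C and 159 to 435 CPM in the uncompressed groups. Gsn alone had 2460 to 23400 CPM in F and 1440 to 3520 CPM in 2+3d-C. The 11 endothelial markers summed to 1570 to 2550 CPM in F, 335 to 399 CPM in 2+3d-C and 8.23 to 49.3 CPM in the uncompressed groups. The 8 glial markers summed to 466 to 796 CPM in F, 191 to 620 CPM in 2+3d-C and at most 16 CPM in the uncompressed groups, and the 5 erythroid ones to 160 to 673, 27.4 to 318 and at most 0.391. In 2+3d-C all 11 endothelial and between 9 and 11 fibroadipogenic markers had over 3 reads. Of the 12 immune markers 4 to 7 did in 2+3d-C, with Ptprc, Adgre1 and Cd3e at 0, and they summed to 7.49 to 89.6 CPM there, 493 to 1320 CPM in F, 4.14 to 13.6 CPM in 2d-U and 17.3 to 131 CPM in 5d-U. In 2d-U 5 to 6 of the 11 fibroadipogenic markers had over 3 reads, and Pdgfra, Lum, Dpt, Pi16 and Mfap5 had none. Between the 5d-U libraries the 8 markers of smooth muscle and pericytes ranged from 64.1 to 742 CPM and the 8 of myofibers from 165 to 3510 CPM in sum. In bulk RNA, fewer cells of a type and less RNA per cell cannot be told apart.

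Cyp26a1 (ENSMUSG00000024987.6, mm10 chr19:37697798-37701536), the main enzyme of retinoic acid breakdown, was the gene on which the choice of the set rested. It had 708, 343 and 389 reads in F replicates 1, 4 and 5, and 7004, 3713 and 2728 reads in 2+3d-C replicates 4, 5 and 10. It had 0 reads in each of the 3 libraries of 2d-U, and 8, 2 and 1 reads in 5d-U replicates 1, 2 and 6. In RPKM, the reads per kb of exon scaled to library size (here with the TMM factors), the level was 66.2, 226 and 62.9 in 2+3d-C, 14.9, 5.56 and 4.96 in F, and 0.175, 0.0352 and 0.0247 in 5d-U. Thus every 2+3d-C library lay above every F library, and every F library above every library of uncompressed culture. Of the 8 reads of 5d-U replicate 1, the density on silent gene families accounts for 7.61, and the other 2 libraries had 2 and 1 reads where 0.12 and 1.27 would come from this background.

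The group means of Cyp26a1 were 118 ± 93.3 RPKM in 2+3d-C (SD, n = 3), 8.46 ± 5.55 in F and 0.0784 ± 0.0842 in 5d-U. On the log2 scale 2+3d-C exceeded F by 3.81 (SE 0.748), and by 2.95 without 2+3d-C replicate 5, the library with the highest level and the fewest reads. Among the 435 genes that were called higher in 2+3d-C than in F with a mean of at least 10 CPM, this was the largest difference, followed by Rem1 with 3.46 and Iqsec3 with 3.33. Among all tested genes it was the 10th largest. 2+3d-C exceeded 5d-U by 10.53 on the log2 scale, and it was at least 2930-fold higher than 2d-U if 3 reads are allowed in each 2d-U library. On the same terms its level in F exceeded that in 2d-U, which was at least 209-fold lower. The 2 uncompressed groups are not compared by a test here, since Cyp26a1 has 11 reads in one and 0 in the other and entered the fit through its reads in F and 2+3d-C. The summed fibroadipogenic and endothelial markers given above also stood higher in F and 2+3d-C than in uncompressed culture, and their part in the level of Cyp26a1 was not tested.

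**Figure D1:**
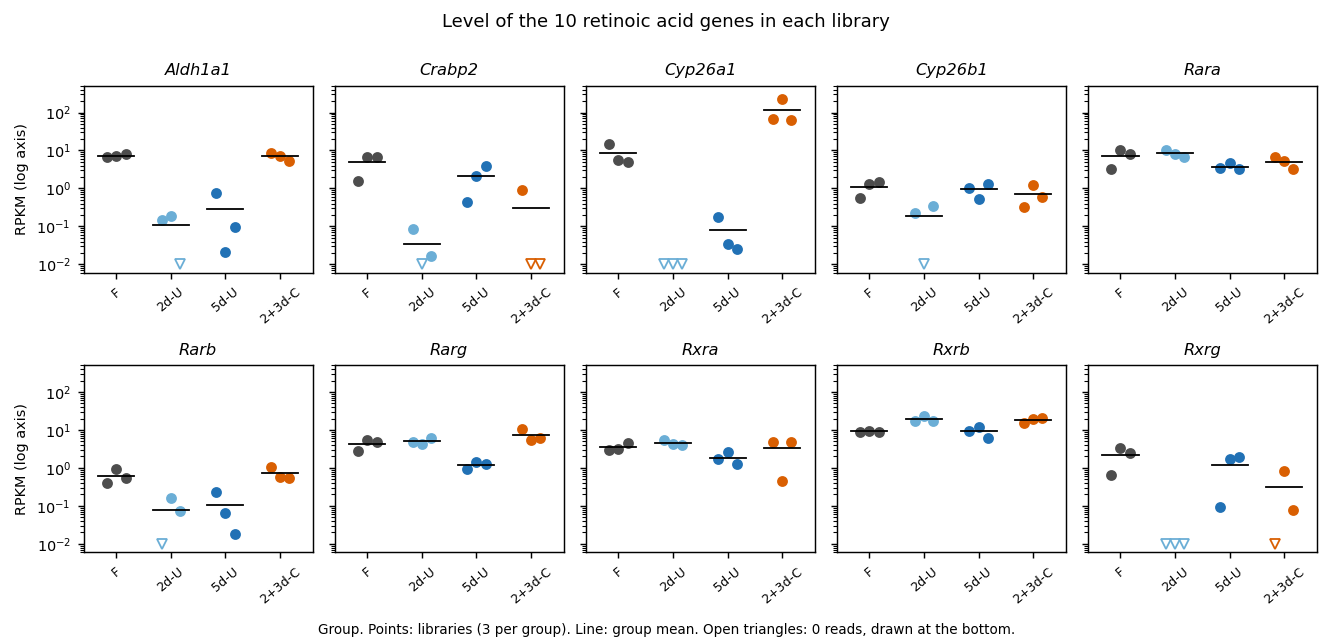
Level of each of the 10 members in each library, as RPKM on a log axis, by group (points, 3 libraries per group; line, group mean; open triangles, 0 reads, drawn at the bottom). Cyp26a1 lies between 62.9 and 226 RPKM in 2+3d-C and at no more than 0.175 RPKM in 2d-U and 5d-U, and Aldh1a1 separates F and 2+3d-C from the uncompressed cultures, while Rara, Rarg, Rxra and Rxrb are found in every library.

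The comparison of 2+3d-C with 5d-U asks what differs with compression at the same age of the culture. Of the 9 members tested, 2 rose in 2+3d-C, which are Aldh1a1, for synthesis, and Rarg, for signaling, and none fell. Over all genes 22.6% were called (adjusted p under 0.05 by the quasi-likelihood test of edgeR with Benjamini-Hochberg adjustment), 9.14% higher and 13.4% lower. Against 2d-U, a comparison in which both the compression and 3 further days of culture differ, Aldh1a1 rose, and edgeR also called Rxrg higher from 20 reads, beside 24.6% of all genes (16% higher and 8.63% lower). The call of Rxrg is not made with background subtracted (adjusted p = 0.0557). Since 2+3d-C enters both comparisons, they are not independent of each other.

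Aldh1a1, which makes retinoic acid from retinaldehyde, had 6.92, 6.98 and 7.85 RPKM in F replicates 1, 4 and 5 and 8.63, 7.02 and 5.29 RPKM in 2+3d-C replicates 4, 5 and 10. It had 0.149, 0.183 and 0 RPKM in 2d-U replicates 1 to 3 and 0.749, 0.0212 and 0.0991 RPKM in 5d-U replicates 1, 2 and 6. F and 2+3d-C overlapped, and both stood above every library of uncompressed culture. Aldh1a1 rose in 2+3d-C over 5d-U by 4.59 on the log2 scale (SE 1.25, adjusted p = 0.017) and over 2d-U by 5.99 (SE 1.34, adjusted p = 0.00521). It was lower than in F by a log2 difference of -6.04 (SE 1.34, adjusted p = 0.00433) in 2d-U and of -4.64 (SE 1.25, adjusted p = 0.0155) in 5d-U. In 11 of 12 fits that each left out 1 library the adjusted p against 5d-U stayed under 0.05. It was 0.0598 in the remaining fit, without 5d-U replicate 6, and without the same library the fall from F to 5d-U had an adjusted p of 0.0595. The fibroadipogenic markers were also higher in sum in F and 2+3d-C, though Pdgfra, Ly6a, Col3a1, Pi16 and Mfap5 overlapped between 2+3d-C and 5d-U. The part of these markers in the level of Aldh1a1 was not tested.

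Crabp2, the carrier that delivers retinoic acid to the receptors, had 1.6, 6.81 and 6.81 RPKM in F and 0.0858, 0 and 0.0168 RPKM in 2d-U, in the order of replicates given above. In 5d-U it had 0.428, 2.16 and 3.96 RPKM, and in 2+3d-C 0.908, 0 and 0. From F to 2d-U it fell by 6.99 on the log2 scale (SE 1.91, adjusted p = 0.0132). In 2+3d-C 1 library held all 64 reads, so that the group overlapped both uncompressed groups, and neither difference passed the test (adjusted p = 0.178 against 5d-U and 0.189 against 2d-U). Without that library, 2+3d-C replicate 4, the difference from 5d-U was -9.41 in place of -2.73 on the log2 scale and that from 2d-U was -3.65 in place of 3.04.

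Cyp26b1, the second retinoic acid hydroxylase, did not share the pattern of Cyp26a1. Its RPKM ranged from 0.567 to 1.51 in F and 0.333 to 1.22 in 2+3d-C, and from 0 to 0.339 (2d-U) and 0.522 to 1.34 (5d-U) in uncompressed culture. The ranges of neighboring groups overlapped, and no difference passed the test (adjusted p between 0.089 and 0.937 over the 5 comparisons tested). Cyp26c1, the remaining gene of the family, had no more than 48 reads in any library. In 2+3d-C all but 1 of its reads were in replicate 4.

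**Figure D2:**
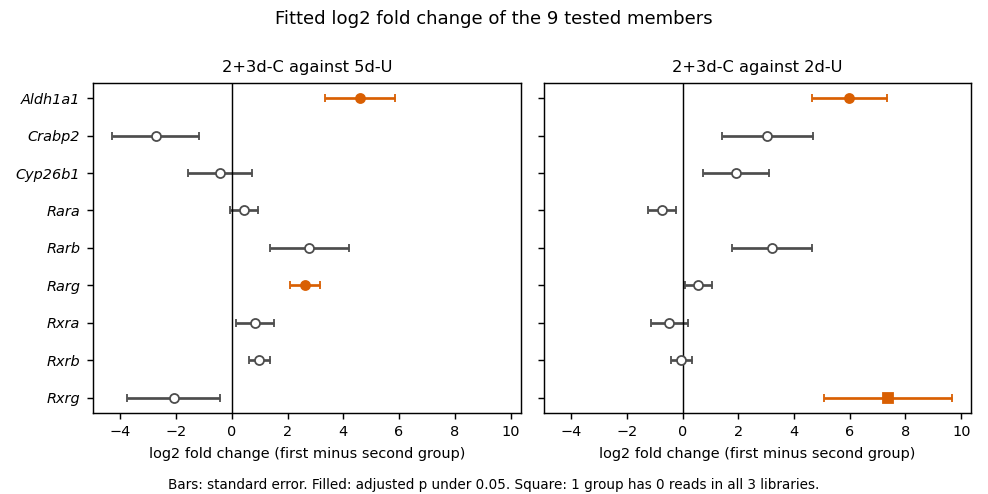
Fitted log2 fold change of the 9 tested members in 2+3d-C against 5d-U (left) and against 2d-U (right), with the standard error as a bar; filled points have an adjusted p under 0.05, and a square marks a gene with 0 reads in every library of 1 group. Aldh1a1 is filled in both comparisons (4.59 and 5.99), Rarg is filled only on the left (2.63) and Rxrg only on the right.

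The 3 RAR genes encode the ligand-binding partners of the heterodimer. Rarg had 10.9, 5.33 and 6.3 RPKM in 2+3d-C replicates 4, 5 and 10 and 0.949, 1.44 and 1.24 RPKM in 5d-U replicates 1, 2 and 6. It had 2.74, 5.6 and 4.74 RPKM in F and 4.92, 4.22 and 6.05 RPKM in 2d-U. The 5d-U libraries were thus the low ones, and the other 3 groups overlapped. Rarg rose in 2+3d-C over 5d-U by 2.63 on the log2 scale (SE 0.531, adjusted p = 0.00292). This call held in all 12 fits that left out 1 library each, but not with a block for the replicate number (1.87, adjusted p = 0.395). It was lower in 5d-U than in F, with a log2 difference of -1.85 (SE 0.517, adjusted p = 0.0189), but only 7 of 12 such fits kept this call, which was lost without F replicate 4 or 5 or any 5d-U library (adjusted p up to 0.112). The difference of 5d-U from 2d-U was -2.06 (SE 0.52, adjusted p = 0.0531), and that of 2+3d-C from 2d-U was 0.57 (SE 0.50, adjusted p = 0.463).

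Rara was at 3.21 to 10.4 RPKM in F and 3.3 to 6.55 in 2+3d-C, beside 6.7 to 10.6 (2d-U) and 3.29 to 4.6 (5d-U) in uncompressed culture. In the order of the means (2d-U, F, 2+3d-C and 5d-U) each group overlapped the next, and no difference passed the test. The difference of 2+3d-C from 5d-U was 0.43 on the log2 scale (SE 0.509, adjusted p = 0.519). In 5d-U Rara made up 73.9% of the summed RPKM of the 3 RAR genes (72.4% to 75.3% over the libraries) and Rarg 23.9% (20.8% to 27.2%). In 2+3d-C Rara made up 38.5% (32.5% to 47.6%) and Rarg 56.1% (47.3% to 62%). The share of Rarg in F was 37.4% and in 2d-U 37.7%, so Rarg was the RAR gene with the highest mean level in 2+3d-C and Rara in the other groups. In 2+3d-C replicate 5 alone Rara (5.37 RPKM) stood slightly above Rarg (5.33 RPKM).

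Rarb, itself a target of retinoic acid, carries the DR5 element printed above. It had 294, 25 and 64 reads in 2+3d-C, 52, 153 and 112 in F, 0, 22 and 17 in the 2d-U group, and 28, 10 and 2 in the 5d-U group. Of the 28 reads in 5d-U replicate 1, background on silent families accounts for 20.2. F and 2+3d-C, at 0.411 to 0.934 and 0.555 to 1.05 RPKM, lay above all libraries of uncompressed culture, at 0.231 RPKM or less. None of these differences passed the test: the log2 difference of 2+3d-C was 2.78 from 5d-U (SE 1.41, adjusted p = 0.135) and 3.22 from 2d-U (SE 1.43, adjusted p = 0.113). Exons of Top2b and Gm48162 cover 38.4% of the exon length of Rarb, and without strand reads there cannot be assigned to 1 gene.

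**Figure D3:**
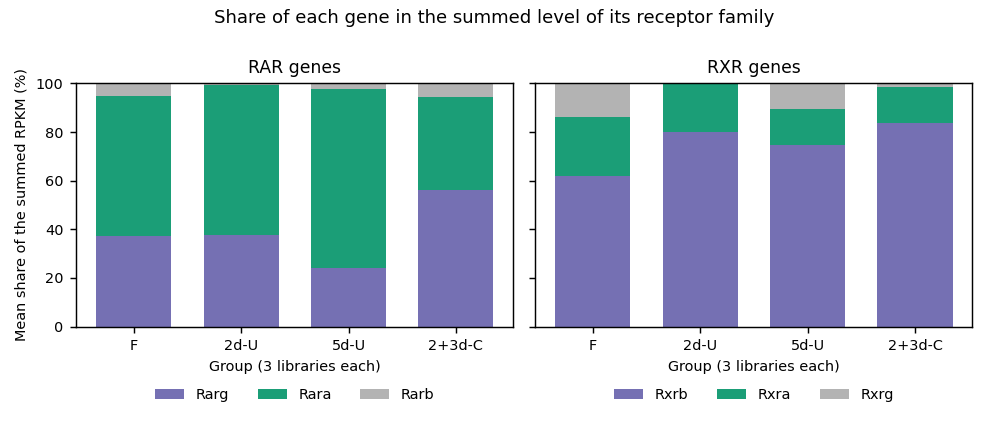
Mean share (%) of each gene in the summed RPKM of the RAR genes (left) and RXR genes (right) in each group of 3 libraries. Rarg goes from 23.9% in 5d-U to 56.1% in 2+3d-C, and Rxrb holds the largest share of the RXR genes in all groups, from 62.1% in F to 83.5% in 2+3d-C.

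The RXR genes encode the common partner of RAR and of several other nuclear receptors. Rxrb was the RXR gene with the highest level in each library, with 8.72 to 9.62 RPKM in F, 14.8 to 20.4 in 2+3d-C, and 16.8 to 22.8 (2d-U) and 6.29 to 11.9 (5d-U) in uncompressed culture. The libraries of 2d-U and 2+3d-C overlapped and lay above those of F and 5d-U, which overlapped too. Rxrb rose from F to 2d-U by 1.05 on the log2 scale (SE 0.385, adjusted p = 0.0421), but only 4 of 12 fits without 1 library kept this call, which was lost without any library of F or 2d-U and without 5d-U replicate 1 or 6 (adjusted p up to 0.139). The difference between 2+3d-C and 5d-U was 0.99 (SE 0.384, adjusted p = 0.0747). DESeq2 called it (1.16, adjusted p = 0.00496), as did edgeR with background subtracted (1.08, adjusted p = 0.0399). With a block for the replicate number it was not called (0.86, adjusted p = 0.673).

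Rxra ranged from 3.01 to 4.66 RPKM in F, and from 4.13 to 5.58 (2d-U) and 1.29 to 2.61 (5d-U) in uncompressed culture. In 2+3d-C it had 4.77, 0.46 and 4.73 RPKM in replicates 4, 5 and 10, the low value resting on 24 reads. No difference passed the test, and that between 2+3d-C and 5d-U was 0.84 on the log2 scale (SE 0.675, adjusted p = 0.336) and 1.35 without replicate 5.

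Rxrg, the RXR form that is found mainly in muscle and brain, had 35, 237 and 226 reads in F and 0 reads in each 2d-U library. It had 5, 110 and 90 reads in 5d-U and 0, 16 and 4 reads in 2+3d-C. In 5d-U replicate 1 the background on silent families alone would give more than the 5 reads seen. Rxrg fell from F to 2d-U, where it was at least 61.4-fold lower with 3 reads allowed per library (adjusted p = 0.00824). Rxrg passed the filter on low counts through F and 5d-U, and in a fit of only the 6 libraries of 2+3d-C and 2d-U it was not among the 7 members tested. The call of 2+3d-C over 2d-U (at least 8.79-fold higher by the same rule, adjusted p = 0.0335) rests on 20 reads, 16 of them in replicate 5. The groups overlap at 0 reads, the call was lost without any 2d-U library or 2+3d-C replicate 5 (adjusted p up to 0.146), and the fitted log2 difference was 4.5 without replicate 5 and 7.38 with it.

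Between the uncompressed cultures of 5 and 2 days, edgeR called none of the 9 members other than Cyp26a1 (2.12% of all genes were called, 1.87% higher and 0.243% lower). At an unadjusted p under 0.05 there were 5, of which Rxrg and Crabp2 were higher and Rara, Rarg and Rxrb lower in 5d-U, beside 35.1% of all genes (33% higher and 2.06% lower). DESeq2 called the same 5 beside 15.4% of all genes (13.2% higher and 2.14% lower). Against F, 4 of 9 members changed in 2d-U (43.8% of all genes, 10.6% higher and 33.3% lower) and 2 of 9 in 5d-U (20.5%, with 11.6% higher and 8.9% lower). In 2d-U Rxrb rose and Aldh1a1, Crabp2 and Rxrg fell, and in 5d-U Aldh1a1 and Rarg fell. Both comparisons share the F libraries.

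Between 2+3d-C and F, the comparison from which the set was chosen, the levels are given with no test (6.4% of all genes called, 1.94% higher and 4.47% lower). Aldh1a1 differed by a log2 value of -0.05, Rxra by -0.10, Rarb by 0.21, Rara by -0.50, Cyp26b1 by -0.67 and Rarg by 0.78, all with overlapping libraries. Rxrb was higher in each 2+3d-C library than in each F library, by 1.01. Crabp2 was lower in each, with a difference of -3.95 (-10.6 without 2+3d-C replicate 4), and Rxrg differed by -2.89 with overlap (-5.84 without 2+3d-C replicate 5). The rise of Cyp26a1 by 3.81 thus stood beside differences of no more than 1.01 in the members that were higher in 2+3d-C.

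The other genes of the retinoid pathway were followed in 7 lists that also hold the members. In the list for retinoic acid synthesis and retinaldehyde reduction, 3 of 17 genes tested rose in 2+3d-C over 5d-U (Adh1, Aldh1a1 and Rdh10) and 3 fell (Adh5, Rdh12 and Rdh14), where 9.14% of all genes rose and 13.4% fell. Adh1, an alcohol dehydrogenase that oxidizes retinol, had 19.3, 39.8 and 40.1 RPKM in 2+3d-C and 0.351, 0.0781 and 0.0219 RPKM in 5d-U. Its rise was 7.77 on the log2 scale (SE 1.03, adjusted p = 0.000161), and 2d-U (0.0298 to 0.281 RPKM) overlapped 5d-U, while F lay between 11.8 and 20.3 RPKM. Rdh10, which catalyses the first and rate-limiting oxidation of retinol, had 12.1, 10.2 and 5.44 RPKM in 2+3d-C and 2.35, 2.2 and 1.56 RPKM in 5d-U, a rise of 2.18 (SE 0.494, adjusted p = 0.00605).

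Adh5, which is best known for its action on formaldehyde and nitrosothiols, took the opposite course, with 4.44, 17.5 and 5.21 RPKM in 2+3d-C and 50.2, 60 and 103 RPKM in 5d-U (log2 difference -2.98, SE 0.534, adjusted p = 0.00135). Rdh12, a retinaldehyde reductase, had no reads in 2+3d-C and was at least 4.74-fold lower there than in 5d-U with 3 reads allowed per library (adjusted p = 0.0125). Rdh14 differed by -2.11 (adjusted p = 0.0366) with overlapping libraries, a call that was lost without 5d-U replicate 6 (-1.27, adjusted p = 0.209), F replicate 1 or 2+3d-C replicate 4 or 10. Against 2d-U, 5 genes of the list rose (Adh1, Aldh1a1, Aldh1a2, Dhrs3 and Rdh10) and 3 fell (Adh5, Aldh1a3 and Rdh5), among which Aldh1a2, Dhrs3, Aldh1a3 and Rdh5 are named after their values were seen. The call of Rdh10 was lost without 2d-U replicate 1 or 3 (adjusted p up to 0.0791). Aldh1a2 and Aldh1a3, further retinaldehyde dehydrogenases, each rest on 1 library: all 76 reads of Aldh1a2 in 2+3d-C were in replicate 4, against 0 in 2d-U, and all 346 reads of Aldh1a3 in 2d-U were in replicate 3, against 0 in 2+3d-C.

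Among genes of retinol uptake, storage and transport, none of 8 rose in 2+3d-C over 5d-U and 2 fell (9.14% and 13.4% of all genes). Fabp5, a fatty acid carrier that can also bind retinoic acid and pass it to Ppard, had 0.531, 2.13 and 0.359 RPKM in 2+3d-C and 35.3, 63.7 and 111 RPKM in 5d-U. The difference was -6.17 on the log2 scale (SE 0.811, adjusted p = 0.000152), with 25.6 to 35.4 RPKM in 2d-U and 3.7 to 11.7 in F. Crabp1, the carrier that is linked with retinoic acid breakdown, had no reads in 2+3d-C and 189, 89 and 89 reads in 5d-U. It was at least 28.2-fold lower in 2+3d-C (adjusted p = 0.000587), and it had 40 to 72 reads in F. Rbp7, a cellular retinol carrier, differed by 2.91 from 5d-U without overlap (adjusted p = 0.102). Fabp5 has close processed copies in the mouse genome, between which reads may be split.

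**Figure D4:**
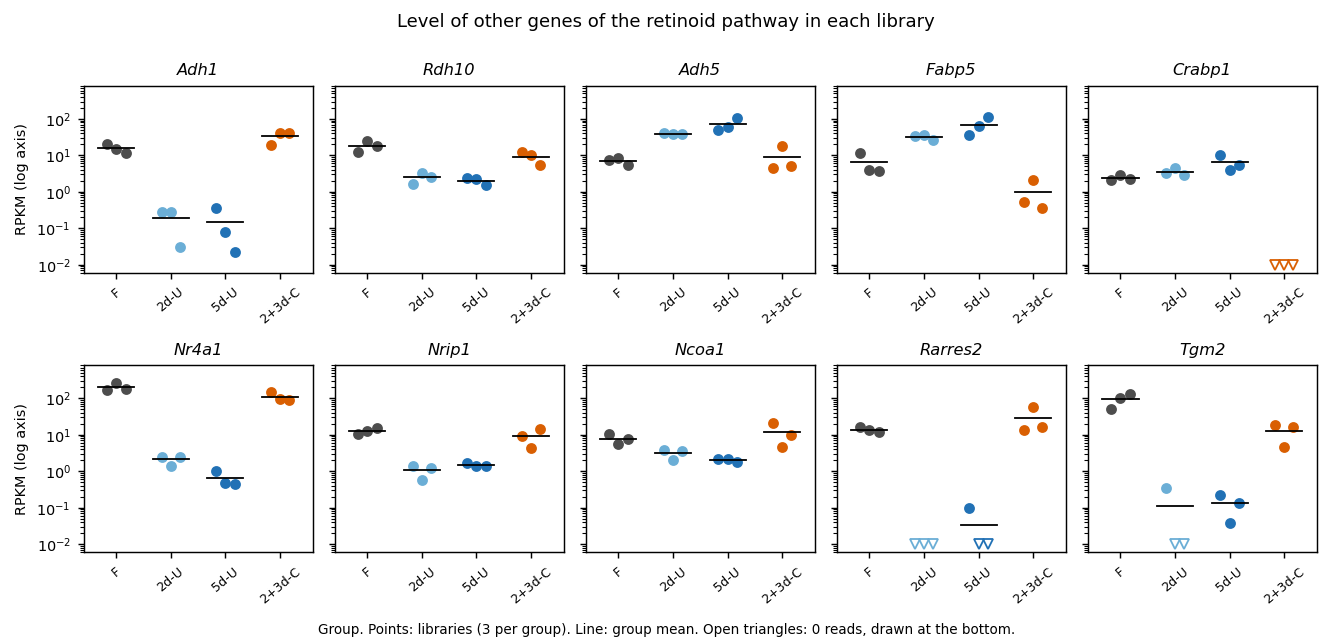
Level of 10 further genes of the retinoid pathway in each library, as RPKM on a log axis, by group (points, 3 libraries per group; line, group mean; open triangles, 0 reads, drawn at the bottom). Adh1 lies at 19.3 to 40.1 RPKM in 2+3d-C and at no more than 0.351 RPKM in 2d-U and 5d-U, whereas Fabp5 and Adh5 are lower in 2+3d-C than in uncompressed culture and Crabp1 has no reads in 2+3d-C.

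Of the 11 receptors that pair with RXR or are related to those that do, 5 rose in 2+3d-C over 5d-U and 1 fell, beside 9.14% and 13.4% of all genes. Nr4a1, an immediate-early orphan receptor, had 148, 98 and 88.6 RPKM in 2+3d-C and 1.02, 0.467 and 0.46 RPKM in 5d-U (log2 difference 7.42, SE 0.559, adjusted p = 2.8e-06), and 170 to 272 RPKM in F. Nr4a2, of the same family, differed by 2.44 (SE 0.475, adjusted p = 0.00237). Thra, a thyroid hormone receptor, rose by 3.07 (SE 0.638, adjusted p = 0.00354), Ppard by 3.13 (SE 0.724, adjusted p = 0.00678) and Nr1h2, a receptor of oxysterols, by 1.35 (SE 0.344, adjusted p = 0.0118), the last of which missed the threshold without any 1 of the 5d-U libraries (adjusted p up to 0.0586). The bile acid receptor gene Nr1h4 fell to 0 reads from no more than 23 (adjusted p = 0.0355), and this call was lost without any 1 library of either group (adjusted p up to 0.131).

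Of 13 coregulators of retinoid receptors, 6 rose and none fell in 2+3d-C against 5d-U, where 9.14% of all genes rose. The median log2 difference of the list was 2.04 against -1.05 over all genes tested, a median that moved to -0.24 when the reads expected from background on silent families were subtracted. The corepressor Nrip1, a known retinoic acid target, had 9.35, 4.22 and 14.5 RPKM in 2+3d-C and 1.67, 1.39 and 1.36 RPKM in 5d-U (difference 2.66, SE 0.504, adjusted p = 0.00198). The coactivators Ncoa1 (2.58, adjusted p = 0.00363), Ncoa3 (2.86, adjusted p = 0.00806) and Crebbp (2.17, adjusted p = 0.00814) rose as well. The corepressor Ncor1 had 12.7 to 18.4 RPKM in 2+3d-C and 9.81 to 15.4 in 5d-U, with overlap (0.17, adjusted p = 0.726). Hdac3, its catalytic partner, differed by -0.85 (adjusted p = 0.117). Against 2d-U 7 of the 13 rose, where 16% of all genes did, and Hdac3 fell, a call that was lost without 2d-U replicate 2 or 3 or 2+3d-C replicate 10 (adjusted p up to 0.0678).

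Among 20 known target genes of retinoic acid (other than Cyp26a1), 3 rose in 2+3d-C over 5d-U, which are Nrip1, Rarres2 and Tgm2, where 9.14% of all genes rose. Rarres2, which encodes the secreted protein chemerin, had 13.8, 58.6 and 16.1 RPKM in 2+3d-C, no reads in 2 of the 5d-U libraries and 6 reads in the other. The difference was 9.78 on the log2 scale (SE 1.23, adjusted p = 0.000196), and F had 11.6 to 16.6 RPKM. Tgm2, a transglutaminase, had 18.4, 4.67 and 16.3 RPKM in 2+3d-C, at most 0.227 RPKM in 5d-U and 51.5 to 131 RPKM in F (difference from 5d-U 6.62, SE 1.36, adjusted p = 0.00326). Other genes share 33.6% of the exon length of Rarres2 and 21.8% of that of Tgm2. The list had a median difference of 0.07, and 16 of its 20 genes, Crabp2, Cyp26b1 and Rarb among them, did not pass the test. In sum, fibroadipogenic and endothelial markers stood higher in F and 2+3d-C, as given above, beside Adh1, Rarres2 and Tgm2. Single markers of both lists overlapped, and the part of these markers in these results was not tested.

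Over the 12 libraries, the log2 CPM most like that of Cyp26a1, by Pearson correlation among the 8795 genes with 10 CPM or more on average, belonged to Tmbim1 (0.991), Rnf167 (0.990), Btg1 (0.990), Ppp1r15a (0.989) and Sqstm1 (0.988). Tmbim1 encodes a membrane protein of the lysosome, Rnf167 a ubiquitin ligase, Btg1 an antiproliferative factor, Ppp1r15a a subunit that reverses the phosphorylation of eIF2 alpha under stress, and Sqstm1 the autophagy receptor p62. All 5 were highest in 2+3d-C and lower in 2d-U and 5d-U than in F. Tmbim1, for example, had 145 to 185 RPKM in 2+3d-C, 44.3 to 81.8 in F, 5.29 to 6.2 in 2d-U and 4.6 to 6.96 in 5d-U. Of the members, Aldh1a1 (0.894) and Rarb (0.822) came closest to Cyp26a1, and Rxra (-0.223) and Rara (-0.164) were farthest. The 12 libraries fall into 4 groups, and these values describe mostly the order of the group levels.

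**Figure D5:**
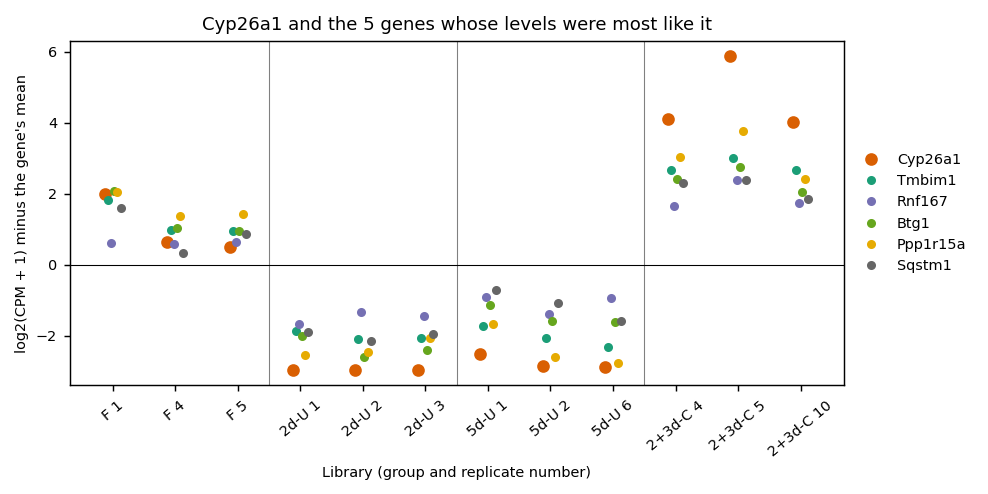
log2(CPM + 1) of Cyp26a1 and of the 5 genes most like it in each of the 12 libraries, after subtraction of the mean of the gene. In each gene the 2+3d-C libraries stand highest on average, F libraries next and the 2d-U and 5d-U libraries below the mean; the span is widest for Cyp26a1, which has 0 reads in 2d-U and 2728 to 7004 reads in 2+3d-C.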

How the data were processed

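RNA-seq was analysed in 12 libraries of sorted mouse MuSCs, grouped by their labels as freshly isolated (F), uncompressed (2d-U and 5d-U) or compressed (2+3d-C). The authors aligned reads to mm10 and deposited read counts per gene, made with featureCounts 1.6.4 on the exons of GENCODE genes without regard to strand. No normalization was applied to these counts. The merged table holds the same counts in its 12 columns. Members and gene lists were chosen with earlier results of these data known. Named were all members, of each pathway list up to 4 genes per direction with an adjusted p under 0.05 in 2+3d-C against 5d-U, and its 3 genes with the highest mean CPM, beside the 5 genes most like Cyp26a1. Of the genes that this rule names, 2 are not reported here.

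The 22635 genes kept by filterByExpr of edgeR 4.0.16 (R 4.3.3) were scaled by TMM and fitted in 1 quasi-likelihood model of all 12 libraries, with two-sided tests of contrasts and Benjamini-Hochberg adjustment. For RPKM, library sizes were scaled by TMM and exon lengths were those in the files. A fold against libraries that all have 3 or fewer reads was set against 3 reads per library and covers counting error only. For likeness, log2 CPM had a prior count of 2. Background was the read density on 1853 autosomal genes of silent families. Exon overlaps were found with GenomicRanges 1.54.1. The scripts were tested on simulated data. Alternatives were DESeq2 1.42.0, no TMM, no filter, subtraction of background reads, only the 6 libraries compared, a replicate block, and each library left out. Replicate numbers were not used to pair the libraries in the fit reported.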

Additional observations from a re-analysis of the deposited data

How the results depend on the processing

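Few reads limit Cyp26a1 in uncompressed culture and Crabp2, Rarb, Rxrg and Cyp26b1 in some groups. In the 5 comparisons tested, the differences of the members and the counts of calls were recomputed under 6 other settings and without each library in turn, and in 2 of them the pathway genes that the rule names. For the members in 2+3d-C against F, background was subtracted and the 6 libraries of these groups were left out in turn. Of the values under other settings, 232 kept direction and side of the threshold, 20 passed it and 10 no longer did, and of those without 1 library 504, 15 and 19. The labels do not say whether libraries of the same replicate number share a sort. Their correlations of deviations (-0.424 to 0.0322) cannot decide it, since none between different numbers is set beside them. With the replicate block, called members were 1 in 2+3d-C against 5d-U, 0 against 2d-U (1926 genes), 1 in 5d-U against 2d-U (Cyp26a1, from 11 reads), 1 in 2d-U against F (2739 genes) and 1 in 5d-U against F (1261 genes). In 2+3d-C against 5d-U the block also took the call from Rarg (1.87, adjusted p = 0.395), Rdh10 (1.76, adjusted p = 0.345), Nrip1 (1.16, adjusted p = 0.539), Ncoa1 (2.66, adjusted p = 0.118), Ncoa3 (0.78, adjusted p = 0.764) and Crebbp (1.73, adjusted p = 0.314), and from Adh5, Rdh12, Rdh14, Nr4a2, Thra, Ppard, Nr1h2 and Nr1h4 (adjusted p from 0.0674 to 0.911). The block turned the log2 difference of Rara to -0.92 and of Rxra to -0.74 in 2+3d-C against 5d-U, of Rarg to -0.09 in 2+3d-C against 2d-U, and of Cyp26b1 to 2.02 and Rara to 0.31 in 5d-U against F. With background subtracted, 1 member was called in 2+3d-C against 2d-U, and in 5d-U against 2d-U the calls were 131 genes, where Rarb turned to -0.96. With only the 6 libraries compared, 1 of 7 members tested was called in 2+3d-C against 2d-U, and in 5d-U against 2d-U 2 members and 768 genes. Between the uncompressed groups the calls were 171 genes without TMM, 2066 genes and 4 members with no filter, and 2889 genes and 6 members by DESeq2 (Cyp26a1 among both), against 479 genes in the fit reported. In 5d-U against F 1 member was called with no filter and 4 by DESeq2, and Rxrb turned to -0.24 without TMM, -0.12 with no filter, -0.24 with background subtracted and -0.39 by DESeq2. Calls that DESeq2 added were Rara (adjusted p = 0.0198) and Rarb (0.0463) in 5d-U against F, and Cyp26b1 (0.0188) and Rarb (0.0248) in 2d-U against F. It also added Rarb (0.0336) in 2+3d-C against 2d-U and Rxrb (0.00496) in 2+3d-C against 5d-U. Without 1 library, genes called were 3065 to 5267 in 2+3d-C against 5d-U, 3761 to 5651 against 2d-U, 153 to 1334 in 5d-U against 2d-U, 5060 to 16533 in 2d-U against F and 3028 to 5287 in 5d-U against F, and members called were 1 to 3, 1 to 2, 0 to 4, 3 to 4 and 0 to 3. The difference of Cyp26a1 between 2+3d-C and F was 2.95 to 4.32. Ranges that crossed 0 were those of Rxra (-0.84 to 0.03), Rxrb (-0.13 to 0.11) and Crabp2 (-3.65 to 4.66) in 2+3d-C against 2d-U, Rarb (-0.83 to 1.54) and Aldh1a1 (-0.89 to 1.95) in 5d-U against 2d-U, Rara (-0.21 to 0.61) and Rarg (-0.12 to 0.44) in 2d-U against F, and Cyp26b1 (-0.99 to 0.08) and Rxrb (-0.38 to 0.25) in 5d-U against F, none of which was called in the fit reported, and, with no test, Rarb (-0.15 to 0.62), Rxra (-0.45 to 0.42) and Aldh1a1 (-0.23 to 0.12) in 2+3d-C against F. The cause was not tested in any of these cases, except that fits of fewer libraries have fewer degrees of freedom.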
